A study of Mus musculus with 6 samples.

Results

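Collagens are the main structural proteins of the extracellular matrix, and the deposited RNA-seq counts of lung endothelial cells (ECs) were examined for the genes that encode their chains. Of 47729 genes in the count tables, 44 had a symbol made of Col, a number, the letter a and a number, and the 42 with at least 10 counts summed over the 6 libraries were taken as the collagen genes. They comprised 10 fibrillar genes, the 6 basement membrane genes Col4a1 to Col4a6 and 26 other collagens. Just inside that limit were Col9a1, Col19a1 and Col26a1 with 12 counts each and Col10a1 with 14, and just outside it were Col2a1 with 3 and Col9a2 with 4.

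The libraries came from 3 WT and 3 leene-KO samples, where leene is the mouse counterpart of a long noncoding RNA of human ECs and KO mice carry a CRISPR-Cas9 deletion of the locus in every cell. Where a sentence gives 3 values for a group, they are in the order of replicates 1, 2 and 3. All animals, WT included, were male, 14 weeks old, on a normal chow diet and infused with angiotensin II (AngII), a peptide that raises blood pressure, at 1000 ng/kg/min for 2 weeks from an osmotic pump. The labels describe lung cells enriched for CD31, with cells of 3 mice per group pooled, whereas the study's methods name CD144, and neither source settles if 1 library is 1 mouse or a pool. No library of uninfused mice was in the comparison, and the p-values measure only the spread between libraries, part of which may be technical. The leene genes are not in the counted annotation and were not analysed here, so the genotypes rest on the labels.

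A collagen molecule is a triple helix of alpha chains, which are hydroxylated and folded in the endoplasmic reticulum, secreted, trimmed and cross-linked. Fibrillar collagens such as types I and III form the tensile fibers of the interstitium and are mainly fibroblast products. Type IV collagen forms the sheet-like network of basement membranes on which ECs and epithelial cells rest. The remaining types coat fibrils, form beaded filaments or anchor cells, and some of them stay in the cell membrane.

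Total counts lay between 24464324 and 35184063 per library. WT replicate 1 stood apart, with the most extreme place on the first principal component (42.6% of the variance) and the highest scaling factor of edgeR's TMM method (1.37, against 0.874 to 1.04 in the others). The endothelial genes Pecam1 (CD31) and Cdh5 (CD144) were read at 313 to 582 and 178 to 753 CPM (counts relative to the TMM-scaled library size), but transcripts of other lung cells were present too. The alveolar type II gene Sftpc was at 2051 CPM in WT replicate 1 and 7562 to 24029 CPM in the other libraries, and the fibroblast proteoglycan gene Dcn at 46.1 CPM in WT replicate 1 and 94.8 to 123 CPM in the others. The 12 fibroblast markers, Dcn among them, differed less as a sum, with 648 CPM in WT replicate 1 and 687 to 1101 CPM in the others. In such bulk libraries fewer cells of a type and less RNA per cell cannot be told apart.

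The collagen RNA of these libraries was dominated by a few chains. On a per-length scale, reads per kilobase of gene model and TMM-scaled library size (RPKM), Col4a1 was the highest with a mean of 79.8 over the 6 libraries. It was followed by Col4a2 (51.8 RPKM), Col6a1 (42.8 RPKM), Col1a1 (20.8 RPKM) and Col3a1 (18.4 RPKM). These 5 genes together held 69.7% to 79.3% of the summed collagen RPKM of a library. At the other end, the 8 collagens that did not pass the filter on low counts (Col9a1, Col9a3, Col10a1, Col11a1, Col19a1, Col22a1, Col24a1 and Col26a1) had mean levels of 0.0094 to 0.0322 RPKM. Several of these are known from cartilage, whose marker Matn1 had no count in any library and whose markers summed to 1.84 to 5.70 CPM.

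Total collagen RNA varied widely among the WT libraries. The summed collagen RPKM of the WT libraries was 107.9, 338 and 317, and that of the KO libraries 338, 263 and 320. WT replicate 1 was thus far below all other libraries, while the other WT libraries lay within or close to the KO range. In this library the collagen genes took 0.111% of all counts, against 0.173% to 0.239% in the others. It was the lowest of the 6 libraries for 28 of the 34 collagens tested, and for 26.7% of all genes tested.

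**Figure D1:**
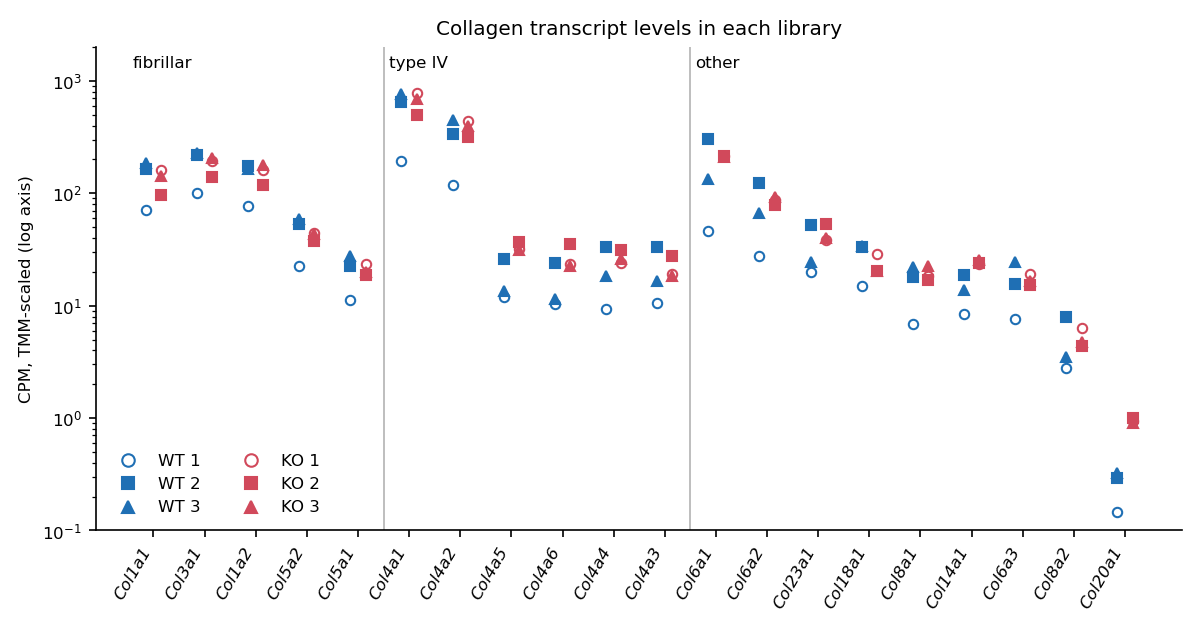
TMM-scaled CPM (log axis) of the collagens given in full, by class, in each of the 3 WT (blue) and 3 KO (red) libraries, with replicate 1 as open circles, replicate 2 as squares and replicate 3 as triangles. WT replicate 1 is the lowest point for most genes, and the KO libraries lie above every WT library for Col4a5, Col14a1 and Col20a1.

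KO and WT were compared gene by gene with edgeR's quasi-likelihood test and Benjamini-Hochberg adjustment over the 14625 genes tested, with a threshold of 0.05. None of the 34 collagens passed it (0 of 34, against 0.109% of all genes tested), the smallest adjusted p being 0.288 for Col20a1. DESeq2 (which called 1.12% of the genes it gave an adjusted p) and limma-voom also called 0 collagens, and edgeR's likelihood ratio test called 1, Col20a1. At an unadjusted p under 0.05 there were 4 collagens (11.8%, against 10.3% of all genes tested), namely Col4a5, Col4a6, Col14a1 and Col20a1, the last of which passed the filter on low counts only through its KO libraries. All 4 were higher in KO, a direction in which 5.62% of all genes tested had such a p. The number was 11 without WT replicate 2, where 5 collagens were called (Col4a5, Col4a6, Col12a1, Col14a1 and Col23a1), as were 791 genes in all against 16 with every library. In that fit 21.3% of all genes tested had an unadjusted p under 0.05. Without WT replicate 1 the number of collagens was 7, of which 3 were higher and 4 (Col5a2, Col6a5, Col15a1 and Col18a1) lower in KO, against 8.84% of all genes in either direction.

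The median log2 fold change of KO against WT (log2FC, given below with the standard error, SE, of the fit) of the 34 collagens was 0.28, against 0.03 for all genes tested, and 24 of them (70.6%) were above 0, against 54.1% of all genes. This shift rested on WT replicate 1. Without it the median was -0.08, 13 collagens were above 0 and 11 had turned direction. The KO libraries were all higher than the WT libraries for 4 collagens (Col4a5, Col6a4, Col14a1 and Col20a1, 11.8% against 8.59% of all genes), and below for 0 (9.2% of all genes).

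**Figure D2:**
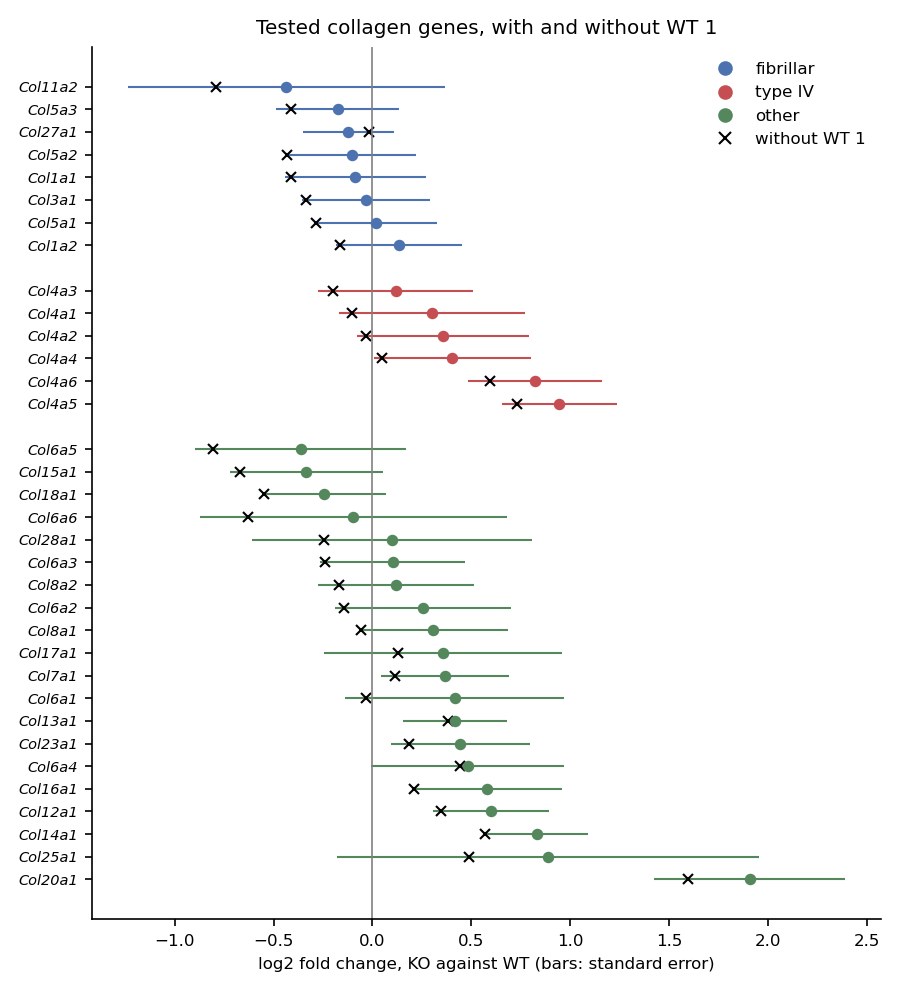
Fitted log2 fold change of KO against WT (horizontal axis) with its standard error (bars) for the 34 collagens tested, by class, and the same value without WT replicate 1 (crosses). The crosses lie to the left of the points for all but 1 gene, Col27a1, and only Col4a5, Col4a6, Col14a1 and Col20a1 have an unadjusted p under 0.05 with all libraries.

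For the fibrillar collagens no difference was detectable with all libraries. Their 8 tested genes had a median log2FC of -0.09, with 2 above and 6 below 0, and none had an unadjusted p under 0.05. Col1a1, which encodes the main chain of type I collagen, measured 71.5, 166 and 186 CPM across WT against 161, 96.0 and 141 CPM across KO libraries. The groups overlapped, and the log2FC of Col1a1 was -0.09 (SE 0.36, adjusted p = 0.945, edgeR's quasi-likelihood test). Its partner chain Col1a2 showed 76.3, 176 and 163 CPM in WT libraries and 160, 119 and 177 CPM in those of KO, with a log2FC of 0.13 (SE 0.32).

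Col3a1, the single chain of type III collagen, had 99.9, 219 and 230 CPM in the WT and 192, 140 and 204 CPM in the KO libraries, with a log2FC of -0.03 (SE 0.32). Type V collagen is a minor fibril component known to set fibril diameter. Col5a1 measured 11.2, 22.7 and 27.8 CPM across WT against 23.6, 18.9 and 19.9 CPM across KO libraries (log2FC 0.02, SE 0.30). Col5a2 showed 22.5, 53.4 and 58.7 CPM in WT libraries and 44.2, 37.6 and 43.4 CPM in those of KO (log2FC -0.10, SE 0.32). For all of these fibrillar genes WT replicate 1 was the lowest library and a WT library was the highest for all but Col1a2. The fibrillar median was -0.37 without WT replicate 1 and 0.16 without WT replicate 3. Col5a2 was at -0.43 without WT replicate 1, with an unadjusted p under 0.05 and an adjusted p of 0.454 (quasi-likelihood test).

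The chains of one fibrillar molecule kept similar proportions. The ratio of Col1a1 to Col1a2 in RPKM, whose proteins combine in type I collagen, ran from 1.51 to 2.16 over the 6 libraries, and that of Col5a2 to Col5a1 from 1.66 to 2.08. The ratio of Col1a1 to Col3a1 ran from 1.02 to 1.25. The ranges of WT and KO overlapped for each of these ratios.

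Type IV collagen genes lie head to head in pairs, each pair transcribed in opposite directions from a shared start region, and the sequences between or across their starts are given because the pairs below were compared chain by chain. They are from RefSeq promoter windows on GRCm38.p6, written 5′ to 3′, with a GC box (GGGCGG or its complement CCGCCC) or a CCAAT box in capitals and no other motif in them. TATAAA was searched too, on both strands, and no motif overlapped another. The first line is the 22 bases of chr8:11312805-11312826 (plus strand) that the first exons of Col4a1 and Col4a2 have in common, the second line the 71 bases of chr1:82586850-82586920 (plus strand) between the starts of Col4a4 and Col4a3. The remaining lines are the upstream stretches of Col4a6 (250 bases, chrX:141474077-141474326, minus strand) and Col4a5 (216 bases, chrX:141475169-141475384, plus strand), with 1308 bases between these gene models.
Col4a1 and Col4a2 overlap: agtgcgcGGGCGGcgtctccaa
Col4a4 to Col4a3 spacer: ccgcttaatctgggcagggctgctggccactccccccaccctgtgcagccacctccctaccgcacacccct
Col4a6 upstream: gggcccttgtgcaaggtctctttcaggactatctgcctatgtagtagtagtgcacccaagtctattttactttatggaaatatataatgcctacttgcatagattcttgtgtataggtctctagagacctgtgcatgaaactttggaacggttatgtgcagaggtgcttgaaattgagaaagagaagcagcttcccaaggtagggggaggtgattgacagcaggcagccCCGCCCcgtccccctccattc
Col4a5 upstream: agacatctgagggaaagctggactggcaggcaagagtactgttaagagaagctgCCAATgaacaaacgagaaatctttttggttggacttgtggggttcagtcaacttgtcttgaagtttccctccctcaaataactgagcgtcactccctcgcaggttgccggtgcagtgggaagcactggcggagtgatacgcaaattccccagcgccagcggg
Across windows of 300 bases around gene starts, the GC box letters occurred in 22 of 37 collagen windows (59.5%) and in 35.7% of all 32851 windows, the CCAAT letters in 35.1% and 37.4%, and TATAAA in 13.5% and 13.6%. These 37 windows belong to 34 collagen genes, and 8 collagen genes had no window in the table. A match of letters is a description of the sequence only.

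The basement membrane genes were the class with the largest share of collagen RNA. Col4a1 and Col4a2, whose proteins form the network common to all basement membranes, held 40.4% to 53.4% of the summed collagen RPKM. Col4a1 (chromosome 8, 11198423 to 11312826) had 25.8, 86.9 and 102 RPKM in the WT and 105, 66.7 and 93.0 RPKM in the KO libraries. Col4a2 (chromosome 8, 11312805 to 11449287) measured 17.8, 51.0 and 67.5 RPKM across WT against 66.6, 47.6 and 60.2 RPKM across KO libraries. Both were well below the rest in WT replicate 1, and the groups overlapped. Their log2FCs were 0.30 (SE 0.47) and 0.36 (SE 0.43), and -0.10 and -0.03 without WT replicate 1. The ratio of Col4a1 to Col4a2 stayed between 1.40 and 1.70 in all libraries.

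The minor chains Col4a3 to Col4a6 build the networks of specialized basement membranes, such as those of the kidney glomerulus and the alveolus, and mutations of Col4a3, Col4a4 and Col4a5 are known as the cause of Alport syndrome. They held 2.15% to 5.93% of the summed collagen RPKM. Col4a5 (chromosome X, 141475385 to 141689234) showed 12.0, 26.2 and 13.5 CPM in WT libraries and 31.7, 36.6 and 31.3 CPM in those of KO. The groups were separated, with WT replicate 2 the nearest to KO. The means were 17.2 ± 7.81 CPM in WT and 33.2 ± 2.96 CPM in KO (SD, n = 3), a log2FC of 0.95 (SE 0.29, unadjusted p = 0.0118, adjusted p = 0.365, edgeR's quasi-likelihood test). An exact permutation test of 3 libraries against 3 cannot give a p under 0.1.

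Col4a6 (chromosome X, 141165403 to 141474076), the neighbor of Col4a5 on the opposite strand, had 10.5, 23.9 and 11.6 CPM in the WT and 23.3, 35.4 and 22.6 CPM in the KO libraries. WT replicate 2 lay inside the KO range, and the log2FC was 0.82 (SE 0.34, unadjusted p = 0.0432, adjusted p = 0.476, same quasi-likelihood test). With single libraries left out, Col4a5 stayed between 0.73 and 1.35 and Col4a6 between 0.56 and 1.26 on the log2 scale. Both were called at an adjusted p under 0.05 only without WT replicate 2 (0.0185 for Col4a5 and 0.0312 for Col4a6, quasi-likelihood test), and Col4a5 also without a filter on low counts (adjusted p = 0.0462).

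The other head-to-head pair of minor chains had smaller values, and the difference between the pairs was not tested. Col4a3 measured 10.6, 33.1 and 16.4 CPM across WT against 19.2, 27.8 and 18.2 CPM across KO libraries, with a log2FC of 0.12 (SE 0.39). Col4a4 showed 9.42, 33.5 and 18.3 CPM in WT libraries and 23.8, 31.1 and 26.0 CPM in those of KO, with a log2FC of 0.40 (SE 0.40). Without WT replicate 2 the log2FCs of Col4a3 and Col4a4 were 0.66 and 0.94. Each then had an unadjusted p under 0.05 (21.3% of all genes in that fit), and neither was called by the quasi-likelihood test. Without WT replicate 1 the log2FCs of Col4a3 and Col4a4 were -0.20 and 0.05. For both, WT replicate 2 was the highest of all 6 libraries. This library was also the highest for the alveolar type II markers, 7 genes that summed to 50642 CPM in it, 5418 and 15623 CPM in WT replicates 1 and 3 and 39317 to 48623 CPM in KO. Whether these cells had a part in the levels of the minor chains was not tested.

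Ratios within a library are free of its scaling factor, and those named here were chosen after their values were seen. Of all the ratios computed between single chains, only Col4a5 to Col4a3 and Col4a3 to Col4a4 did not overlap between the groups. Col4a5 was already separated by itself, so its ratio is not independent of that result. Col4a5 to Col4a3 in RPKM of the WT libraries was 1.68, 1.17 and 1.22 and that of KO 2.45, 1.95 and 2.54, without overlap. Col4a5 to Col4a4, the other chain of that pair, was 2.01, 1.24 and 1.17 in WT and 2.11, 1.86 and 1.90 in KO, with WT replicate 1 inside the KO range. Col4a3 to Col4a4 was 1.19, 1.05 and 0.958 in WT and 0.859, 0.951 and 0.748 in KO, again without overlap, by a margin of less than 0.01 between the nearest libraries. Col4a5 to Col4a6 ran from 1.23 to 1.65 and overlapped between the groups.

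**Figure D3:**
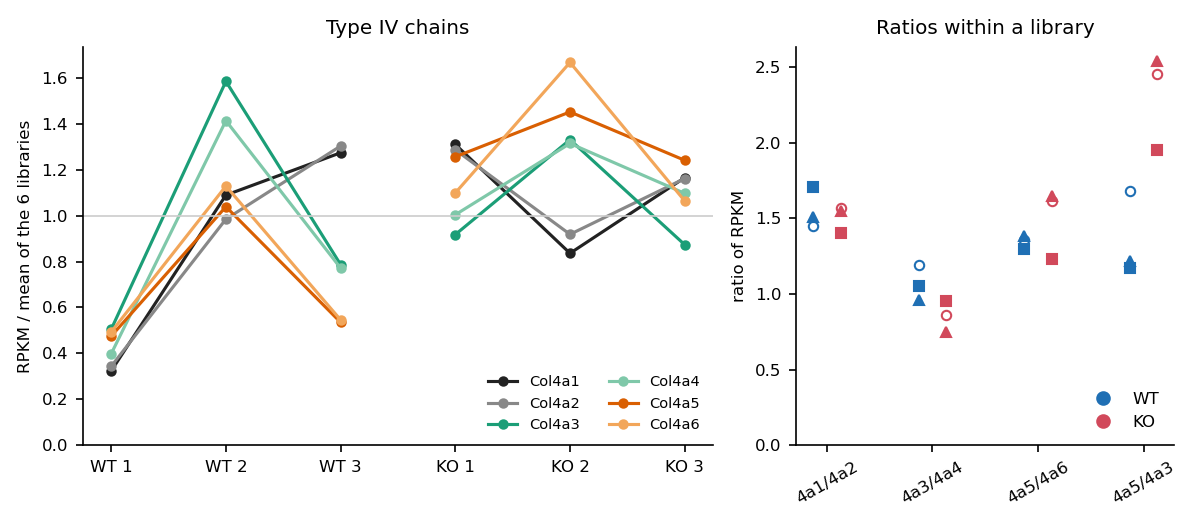
Left, RPKM of the 6 type IV chains in each library divided by the mean of the 6 libraries for that gene. Right, ratios of RPKM within each library (WT blue, KO red, replicate 1 open circles, replicate 2 squares, replicate 3 triangles). Col4a1 and Col4a2 move together, as do Col4a5 with Col4a6. Col4a3 and Col4a4 do so less closely, with a ratio of 0.748 to 1.19 that is lower in each KO library than in any WT library. The ratio of Col4a5 to Col4a3 is higher in each KO library than in any WT library, which the ratio of Col4a5 to Col4a4 (not drawn) is not.

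Taken as a class, the 6 type IV genes had a median log2FC of 0.38, and all 6 were above 0, against 54.1% of all genes tested. At an unadjusted p under 0.05 there were 2 of the 6, against 10.3% of all genes tested. The median was 0.01 without WT replicate 1 and 0.80 without WT replicate 2. The endothelial markers all lay above 0 too (10 of 10, and 6 of 10 without WT replicate 1, none called by the quasi-likelihood test and 1 at an unadjusted p under 0.05), with sums of 1611, 1944 and 2998 CPM in WT and 3175, 1974 and 2570 CPM in KO. Mesothelial markers summed to 79.1 to 151 CPM in WT and 168 to 196 CPM in KO without overlap. Of these 5 genes 4 were above 0 (3 without WT replicate 1) and none was called by the quasi-likelihood test. Only 1 of the 5 was by itself higher in KO without overlap (8.59% of all genes tested). Alveolar type I markers summed to 1095 to 1924 CPM in WT and 1413 to 2106 CPM in KO. Gene by gene, however, 3 of 7 were above 0 and 4 below (median log2FC -0.31). The part of these cells in the type IV values was not tested.

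The balance of type IV to fibrillar RNA was compared within libraries. The summed RPKM of the type IV genes divided by that of the fibrillar genes reached 1.54, 2.14 and 2.33 in the WT libraries and 2.81, 2.87 and 2.57 in KO libraries. The KO values lay above the WT values, by a gap between the nearest libraries that was smaller than the spread within WT. The fibrillar share of the summed collagen RPKM was 29.2%, 20.9% and 23.8% in WT and 19.3%, 17.2% and 20.1% in KO, and the type IV share was 45.1%, 44.7% and 55.5% in WT and 54.2%, 49.3% and 51.6% in KO. The fibrillar shares did not overlap between the groups, whereas the type IV shares did. Even a full lack of overlap between 3 libraries and 3 cannot give a p under 0.1 in an exact permutation test. No p is given for these sums over chosen genes, and they are carried by Col4a1, Col4a2, Col1a1, Col1a2 and Col3a1. Fibroblast markers, whose cells are the main source of fibrillar collagen, summed to 648, 1000 and 687 CPM in WT and 759, 861 and 1101 CPM in KO, with 11 of 12 above 0 (6 of 12 without WT replicate 1) and none called (0 at an unadjusted p under 0.05, 0 by DESeq2). Smooth muscle and pericyte markers summed to 244 to 300.1 CPM in WT and 198 to 277 CPM in KO, with 4 of 10 above 0 and 6 below (median log2FC -0.23). At an unadjusted p under 0.05, 2 of the 10 were lower in KO (4.68% of all genes tested) and 0 were higher. Lower in KO without overlap were 3 of the 10 (9.2% of all genes tested). Of these 10 genes 1 was called by DESeq2 (1.12% of all genes with an adjusted p there) and 0 by the quasi-likelihood test. That gene, Tagln, an actin-binding protein of contractile cells, was picked from the list after its values were seen. It had 83.8, 68.9 and 84.9 CPM in the WT and 29.3, 37.8 and 46.5 CPM in the KO libraries (adjusted p = 0.14 with the quasi-likelihood test and 0.000531 with DESeq2). The part of these cells in the balance was not tested.

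**Figure D4:**
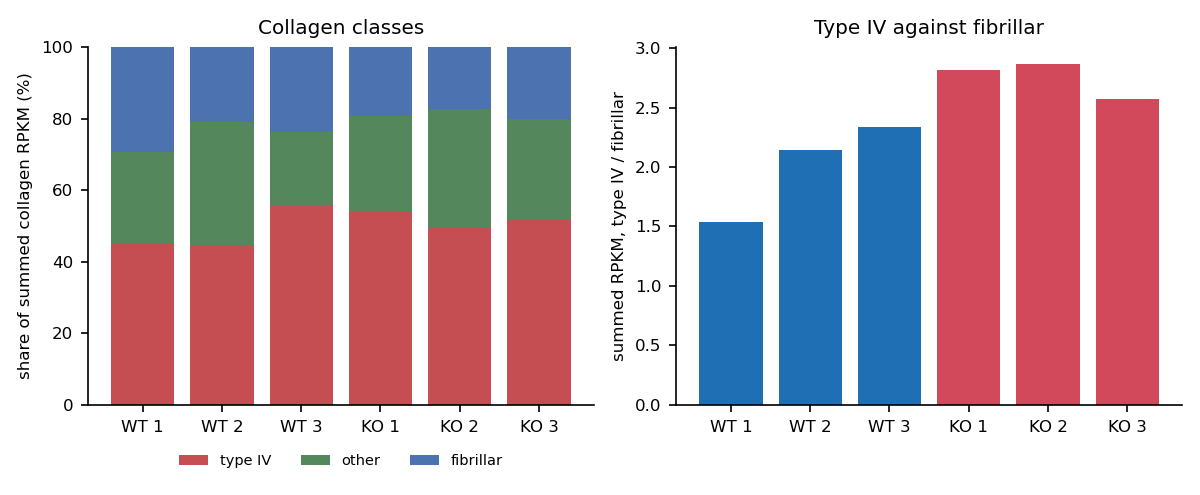
Left, share of the summed collagen RPKM (%) held by type IV, other and fibrillar collagens in each library. Right, summed type IV RPKM divided by summed fibrillar RPKM, with WT in blue and KO in red. The ratio runs from 1.54 to 2.33 in WT and from 2.57 to 2.87 in KO.

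The 20 tested genes among the other collagens had a median log2FC of 0.36, with 16 above 0, against 54.1% of all genes tested. At an unadjusted p under 0.05 there were 2 of the 20, a share close to the 10.3% of all genes tested. The median was 0.04 without WT replicate 1. Col14a1 and Col20a1, the genes with the low p, encode fibril-associated collagens with interrupted helices (FACITs), which bind to the surface of collagen fibrils. Of the 8 FACIT genes 4 were tested, Col20a1 only through its KO libraries. Their median log2FC was 0.71 with all libraries and 0.46 without WT replicate 1.

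Col14a1 (chromosome 15, 55307750 to 55520803) measured 8.49, 18.7 and 13.7 CPM across WT against 23.3, 23.7 and 25.6 CPM across KO libraries. The groups did not overlap, and the KO libraries were closely grouped. The means were 13.6 ± 5.09 CPM and 24.2 ± 1.24 CPM (SD, n = 3), with a log2FC of 0.83 (SE 0.26, unadjusted p = 0.0141, adjusted p = 0.377, edgeR's quasi-likelihood test). Without WT replicate 1 the value was 0.57, and without WT replicate 2 it was 1.10 and called (adjusted p = 0.0352, same test). The FACIT genes Col12a1 and Col16a1 were at 0.60 (SE 0.29) and 0.58 (SE 0.38) on the log2 scale, with overlapping groups.

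Col20a1 (chromosome 2, 180986535 to 181017540) had the largest log2FC of the collagens tested, 1.91 (SE 0.48, unadjusted p = 0.00459, adjusted p = 0.288, quasi-likelihood test), at a very low level. It rested on 6, 10 and 7 counts in WT and 22, 27 and 26 counts in KO, or 0.147, 0.294 and 0.328 CPM and 0.946, 0.993 and 0.897 CPM. The filter on low counts is set at 0.350 CPM of the library size before TMM scaling, unlike the CPM values given here. No WT library and all KO libraries were above that limit, so the gene was tested only because of its level in KO. With at least 10 counts asked of every library it was not tested, and 3 of 27 collagens had an unadjusted p under 0.05, against 10.6% of all genes in that fit. The likelihood ratio test of edgeR, which does not allow for the uncertainty of the dispersion, gave it an adjusted p of 0.0108.

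Type VI collagen forms beaded filaments next to basement membranes from the products of Col6a1, Col6a2 and Col6a3. Col6a1 showed 46.2, 303 and 134 CPM in WT libraries and 215, 216 and 212 CPM in those of KO. The KO libraries agreed closely and fell in the middle of a wide WT range, with a log2FC of 0.41 (SE 0.56). Col6a2 had 27.9, 123 and 67.1 CPM in the WT and 87.5, 79.4 and 92.4 CPM in the KO libraries (log2FC 0.25, SE 0.45). Col6a3 measured 7.61, 15.7 and 24.3 CPM across WT against 19.2, 15.2 and 16.6 CPM across KO libraries (log2FC 0.10, SE 0.37). The chains did not keep one proportion, since the ratio of Col6a2 to Col6a3 in RPKM was 5.27, 11.2 and 3.96 in WT and 6.54 to 8.02 in KO. The alternative chains Col6a4, Col6a5 and Col6a6 had mean levels of 0.0397 to 0.165 RPKM.

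Col23a1, a collagen of the cell membrane, showed 20.0, 52.2 and 24.2 CPM in WT libraries and 38.2, 53.3 and 39.7 CPM in those of KO (log2FC 0.44, SE 0.35). The other membrane collagens Col13a1, Col17a1 and Col25a1 were likewise above 0, at 0.42 (SE 0.26), 0.36 (SE 0.60) and 0.89 (SE 1.07) on the log2 scale, without a low p. Col25a1 rested on 4, 0 and 12 counts in WT and 6, 11 and 12 counts in KO. Type VIII collagen, a short-chain network of vessel walls, showed no shift beyond its spread. Col8a1 had 6.85, 18.1 and 22.1 CPM in the WT and 18.4, 17.0 and 22.5 CPM in the KO libraries (log2FC 0.31, SE 0.38), while Col8a2 had 2.79, 7.93 and 3.47 CPM in the WT and 6.32, 4.38 and 4.76 CPM in the KO libraries (log2FC 0.12, SE 0.40).

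The multiplexins Col18a1 and Col15a1 are proteoglycans of vascular basement membranes, and a fragment of the former is endostatin, an inhibitor of angiogenesis. Col18a1 measured 15.0, 33.5 and 33.8 CPM across WT against 29.0, 20.2 and 20.4 CPM across KO libraries. WT replicate 1 lay below all KO libraries and the other WT libraries above them, and the log2FC was -0.24 (SE 0.31). Col15a1 had a log2FC of -0.33 (SE 0.39), with 6.22, 12.1 and 19.8 CPM in WT and 12.0, 7.87 and 10.1 CPM in KO. Without WT replicate 1 the values were -0.55 and -0.67, each with an unadjusted p under 0.05 and neither called by the quasi-likelihood test.

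The genes that modify, export, cross-link, bind and degrade collagen were read from lists of 66 genes, of which 64 were tested. None was called by the quasi-likelihood test (0 of 64) or by DESeq2. At an unadjusted p under 0.05, 2 of the 64 were higher and 1 was lower in KO, where 5.62% of all genes tested were higher and 4.68% lower at that limit. With all libraries 46 of 64 were above 0, against 54.1% of all genes, with a median log2FC of 0.26. As with the collagens, this rested on WT replicate 1, without which 28 of 64 were above 0 (52.0% of all genes) and the median was -0.04. The modifying enzymes were above 0 in 12 of 15 cases (median 0.31) and in 8 of 15 without that library, and the collagen receptors in 8 of 9 both with it (median 0.47) and without it (median 0.35). The chaperone and export list had 3 above and 5 below 0 (median -0.15). With all libraries, 5 of 6 cross-linking genes, 4 of 7 propeptide proteases, 3 of 5 collagen-degrading proteases, 3 of 5 protease inhibitors and 8 of 9 collagen-binding matrix genes were above 0. Without WT replicate 1 these numbers were 2, 2, 2, 2 and 1.

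Serpinh1 encodes HSP47, the collagen-specific chaperone of the endoplasmic reticulum. It showed 133, 370 and 326 CPM in WT libraries and 182, 162 and 174 CPM in those of KO. WT replicate 1 was the lowest and the other WT libraries were well above all KO libraries, with a log2FC of -0.68 (SE 0.35, unadjusted p = 0.0889, adjusted p = 0.538, quasi-likelihood test). Fkbp14, a proline isomerase of the same compartment, had 7.78, 12.9 and 12.4 CPM in the WT and 6.28, 8.28 and 7.73 CPM in the KO libraries, with a log2FC of -0.56 (SE 0.23) and an unadjusted p of 0.0395 in the same fit across all genes. The prolyl hydroxylase gene P4ha1 (log2FC -0.17, SE 0.43) and the lysyl hydroxylase gene Plod2 (log2FC 0.21, SE 0.20) had no low p.

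Lox, the lysyl oxidase that cross-links fibrillar collagen, measured 19.0, 49.8 and 22.3 CPM across WT against 19.6, 18.8 and 19.7 CPM across KO libraries, so that its log2FC of -0.65 (SE 0.34) came with 1 high WT library. Pxdn, the peroxidasin that cross-links type IV collagen, was at 0.50 (SE 0.39) on the same scale. Of the collagen-binding matrix genes, Sparc was at -0.05 (SE 0.27) and Bgn at 0.10 (SE 0.34).

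The 2 of 64 list genes with an unadjusted p under 0.05 in the upward direction (5.62% of all genes tested) were Mmp9 and Lair1. Mmp9, a gelatinase that also cleaves type IV collagen, showed 3.55, 11.9 and 8.57 CPM in WT libraries and 14.1, 16.4 and 20.2 CPM in those of KO, a log2FC of 1.08 (SE 0.39, unadjusted p = 0.026, adjusted p = 0.435, quasi-likelihood test). Lair1, an inhibitory collagen receptor of immune cells, had 0.661, 2.41 and 1.55 CPM in the WT and 3.65, 3.02 and 2.93 CPM in the KO libraries, a log2FC of 1.06 (SE 0.44, adjusted p = 0.478, same test). For both, the groups did not overlap, as for 8.59% of all genes tested in that direction. Lair1 is known from leukocytes, and the 6 B cell markers summed to 7.76 to 17.1 CPM in WT and 61.8 to 67.5 CPM in KO. Of these 6 genes 3 were called by the quasi-likelihood test (0.109% of all genes tested) and 5 by DESeq2 (1.12% of all genes with an adjusted p there). All 6 were higher in KO without overlap (8.59% of all genes tested). Macrophage markers summed to 114 to 312 CPM in WT and 149 to 391 CPM in KO. Whether these cells had a part in the levels of Mmp9 and Lair1 was not tested.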

How the data were processed

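Poly(A)-enriched, strand-specific RNA-seq libraries of mouse lung ECs were used, 3 WT and 3 KO. The authors deposited raw read counts per gene, made per the file headers with featureCounts 2.0.0 on the Ensembl 84 annotation from uniquely aligned reads on the reverse strand. The submitters' processing notes name STAR 2.5.4b and mm10. Reads shared by overlapping genes or near-identical copies were not counted. Symbols came from GENCODE for the same build.

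Counts were tested in R 4.3.3 with edgeR 4.0.16 (filterByExpr, TMM, glmQLFit and glmQLFTest with default options, genotype as the only term), over all genes, after a trial on simulated data. CPM and RPKM used TMM-scaled library sizes and the gene length in the files. DESeq2 1.42.0, limma-voom (limma 3.58.1), the likelihood ratio test, other scalings and filters, a replicate block and each library left out were the alternatives. DESeq2 gave 6 collagens no adjusted p. Same-numbered libraries did not deviate together (correlations -0.08, 0.22 and 0.01).

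The collagen genes, the lists of other genes and the tests were chosen with earlier results of these data known. Full values were given for collagens at an unadjusted p under 0.05, for the 4 fibrillar, 4 type IV and 6 other collagens highest in RPKM, and for their partner chains. Collagens outside that rule (such as Col12a1 and Col15a1) and Tagln were named after their values were seen.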

Additional observations from a re-analysis of the deposited data

How the results depend on the processing

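No collagen was called by DESeq2, limma-voom, the newer dispersion option of edgeR, RLE or total-count scaling, scaling without mitochondrial genes or a minimum of 10 counts in every library, and 1 was called by the likelihood ratio test (Col20a1) and 1 without a filter on low counts (Col4a5). With the replicate block 0 were called and 5 had an unadjusted p under 0.05. The numbers did not pair the libraries, and the block took the calls over all genes from 16 to 0. With each library left out, 0 to 5 collagens were called and 3 to 11 had an unadjusted p under 0.05. Total-count scaling moved the median of all genes from 0.03 to -0.13 (log2). Of 319 values of single collagens under the alternatives, 282 kept their direction and side of the threshold, 6 passed it and 31 turned direction. The log2FC of Col5a1 was -0.0070 with DESeq2, -0.0028 with RLE and -0.058 with total counts. Col3a1 was at 0.0031 with limma-voom and 0.038 with the block, and Col5a2 at 0.0068 and 0.00094. With single libraries left out, log2FC ran from -0.41 to 0.15 for Col1a1, -0.17 to 0.31 for Col1a2, -0.33 to 0.16 for Col3a1, -0.10 to 0.64 for Col4a1, -0.033 to 0.75 for Col4a2, -0.20 to 0.66 for Col4a3, -0.29 to 0.28 for Col5a1, -0.43 to 0.13 for Col5a2, -0.033 to 1.22 for Col6a1, -0.14 to 0.83 for Col6a2, -0.24 to 0.53 for Col6a3, -0.059 to 0.63 for Col8a1 and -0.17 to 0.69 for Col8a2, with the lowest value of each without WT replicate 1 and the highest without WT replicate 2 or 3. The cause was not tested. Collagens with few counts, such as Col20a1, and the wide spread between WT libraries limit what 3 libraries against 3 can show.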
